A study of Mus musculus with 6 samples.

Results

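Glycolysis and hypoxia response genes were taken as a list of 36 gene symbols. A gene counted as measured where a probe set was annotated to its symbol and to no other, which held for 34 of the 36, among 19936 genes measured in all. For the 7 genes with several such probe sets, the brightest one by its mean on the 6 arrays stands for the gene. Expression of Gpi1 and Eno1 was not analysed here, and their promoter windows are counted below.

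Glycolysis splits glucose into pyruvate in the cytosol and yields ATP without oxygen. Endothelial cells are known to draw most of their ATP from it even when oxygen is at hand. When oxygen is short, the hydroxylases encoded by Egln1 and Egln3 no longer mark the HIF alpha subunits (Hif1a, Epas1) for destruction, and HIF then binds short DNA motifs beside glycolytic genes, genes of lactate and acid export, genes of mitochondrial turnover and genes of collagen processing. HIF activity is set mainly at the protein level, which expression arrays do not measure.

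A set of 3 lines of mouse endothelial cells that had been made from embryonic stem cells was measured, with 2 whole-transcript arrays per line. They are labelled VE+N for a line that expresses both VE-cadherin and N-cadherin, VE for a line with VE-cadherin, and N for a line with N-cadherin. All lines were seeded at 50000 cells per square centimetre and kept for 72 h, well past confluence. Serum was then withdrawn for 18 to 20 h (1% albumin in its place), and the labels name no low-oxygen treatment. Each cadherin state was 1 line, no source used here says how its cadherin expression was obtained, and the cadherin cannot be told apart from any other difference between the lines. The titles call the 2 samples of a line biological replicates and the design describes them as separate RNA extractions; separate cultures are not stated, so the p-values measure the spread between these samples, which may be technical.

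Values are log2 signals, on which a difference of 1 is 2-fold, and they cannot be set against one another between genes. Medians of all probe sets lay between 4.85 and 4.91 on the 6 arrays, and arrays have no read depth, so their number limits the precision. A gene was called where limma gave an adjusted p (Benjamini-Hochberg over all genes) below 0.05; values after ± are the SE of a difference unless SD is stated. Most endothelial markers were bright in each line: of 17, 16 lay above the median gene in VE+N, 16 in VE and 15 in N. Of 7 pluripotency markers, 0 did so in any line. Of 12 mural and fibroblast markers, however, 1 did so in VE+N, 5 in VE and 4 in N. Cdh2 signal averaged 6.69 ± 0.0105 in VE+N, 5.86 ± 0.0932 in VE and 7.67 ± 0.012 in N (SD, n = 2 each), in the order of the labels, whereas Cdh5 signal was 7.10 ± 0.0832 in VE+N, 6.94 ± 0.156 in VE and 7.28 ± 0.0254 in N and differed in no comparison (adjusted p between 0.0917 and 0.462). The VE-cadherin part of the labels is thus not borne out by the Cdh5 probe set, and lines are called here by their labels.

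The letters ACGTG, at the core of the HIF motif, and the close variant GCGTG were sought on both strands in the 250 bases before each RefSeq start site (build GRCm38.p6), where 33 of the 36 genes had at least 1 window. At least 1 of the 2 motifs stood in 37 of the 47 windows of these genes (78.7%), against 38.6% of all 32851 windows. For ACGTG alone the shares were 48.9% of the member windows and 16.6% of all windows, and for GCGTG alone 53.2% and 28.2%. Both motifs hold a CG pair, and the member windows were richer in CG pairs, with a median of 14 against 6 in all windows. ACGTG can overlap its own reverse complement, and such a site is counted on each strand. A match describes the letters and shows no binding.

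Windows of 6 members are shown because these genes stand for the expression patterns described below: high in VE (Slc16a3, Car9), low in VE+N (Pgk1, Ldha), high in VE and low in VE+N (Ero1a), and low in N (Ankrd37). Capitals mark either motif on either strand, and each window reads 5′ to 3′ on the gene's strand and ends at the base before the start site.
Slc16a3, chr11:120948817-120949066 (+ strand): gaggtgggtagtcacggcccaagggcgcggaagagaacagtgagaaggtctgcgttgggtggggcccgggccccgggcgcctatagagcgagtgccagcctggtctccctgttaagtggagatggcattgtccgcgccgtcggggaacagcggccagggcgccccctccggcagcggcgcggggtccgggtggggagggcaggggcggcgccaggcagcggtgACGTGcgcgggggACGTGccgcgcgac
Car9, chr4:43506776-43507025 (+ strand): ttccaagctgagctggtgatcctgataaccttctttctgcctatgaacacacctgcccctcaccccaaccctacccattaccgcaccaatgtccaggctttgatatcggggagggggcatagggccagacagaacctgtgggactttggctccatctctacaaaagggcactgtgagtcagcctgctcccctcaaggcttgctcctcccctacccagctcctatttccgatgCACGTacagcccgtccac
Pgk1, chrX:106186850-106187099 (+ strand): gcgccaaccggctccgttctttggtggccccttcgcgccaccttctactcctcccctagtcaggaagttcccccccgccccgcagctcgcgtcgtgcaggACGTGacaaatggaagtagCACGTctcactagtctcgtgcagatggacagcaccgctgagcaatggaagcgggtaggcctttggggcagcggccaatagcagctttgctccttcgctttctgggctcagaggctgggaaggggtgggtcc
Ldha, chr7:46845554-46845803 (+ strand): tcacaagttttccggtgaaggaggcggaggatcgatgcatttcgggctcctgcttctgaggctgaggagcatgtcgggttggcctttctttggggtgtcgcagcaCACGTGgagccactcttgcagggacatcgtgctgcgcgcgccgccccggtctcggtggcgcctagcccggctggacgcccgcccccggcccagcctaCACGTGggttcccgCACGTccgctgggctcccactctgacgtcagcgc
Ero1a, chr14:45318573-45318822 (- strand): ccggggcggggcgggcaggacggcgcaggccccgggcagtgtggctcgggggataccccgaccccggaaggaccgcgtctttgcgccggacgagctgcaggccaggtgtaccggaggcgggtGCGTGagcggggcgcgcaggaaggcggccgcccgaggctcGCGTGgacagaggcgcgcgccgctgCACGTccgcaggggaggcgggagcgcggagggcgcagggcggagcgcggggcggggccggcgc
Ankrd37, chr8:45999851-46000100 (- strand): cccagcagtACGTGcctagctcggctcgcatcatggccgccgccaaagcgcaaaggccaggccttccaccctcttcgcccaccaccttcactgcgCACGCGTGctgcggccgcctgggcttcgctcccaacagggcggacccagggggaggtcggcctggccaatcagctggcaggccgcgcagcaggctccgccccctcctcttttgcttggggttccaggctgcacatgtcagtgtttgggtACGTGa
In Slc16a3 the letters ACGTG began 27 and 14 bases before the start site, and in Car9 the only match began 18 bases before it. Ldha held 5 matches in this window, counting both strands where the motif overlaps its reverse complement, and 1.22% of all windows held 3 or more of ACGTG. The other window of Ldha held 1 GCGTG and 0 ACGTG. The windows of Vldlr, Tpi1, Eno2 and Gpi1 held neither motif.

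Among the 34 measured genes, 25 (73.5%) differed between lines by limma's moderated F-test, where 22.4% of all 19936 genes did. The 34 genes were bright, with medians from 8.62 to 9.11 on the 6 arrays, where the median gene had 5.48 to 5.58 in the 3 lines. All genes include many dim ones, and the shares here and below were not tested against genes of like signal. In pairwise tests 27 were called in at least 1 comparison (25.6% of all genes were), 4 in all 3 comparisons (2.92% of all genes) and 7 in none (74.4% of all genes). The list was chosen with earlier results of these data known, so these shares are no independent test of it. Of the 34, 17 had their highest mean in VE and 18 their lowest in VE+N, compared with 24.7% and 31.8% of all genes. The heat map of the genes by array shows the VE columns mostly red in the glucose, lactate and hypoxia blocks, and the VE+N columns mostly blue in the glycolytic blocks.

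**Figure D1:**
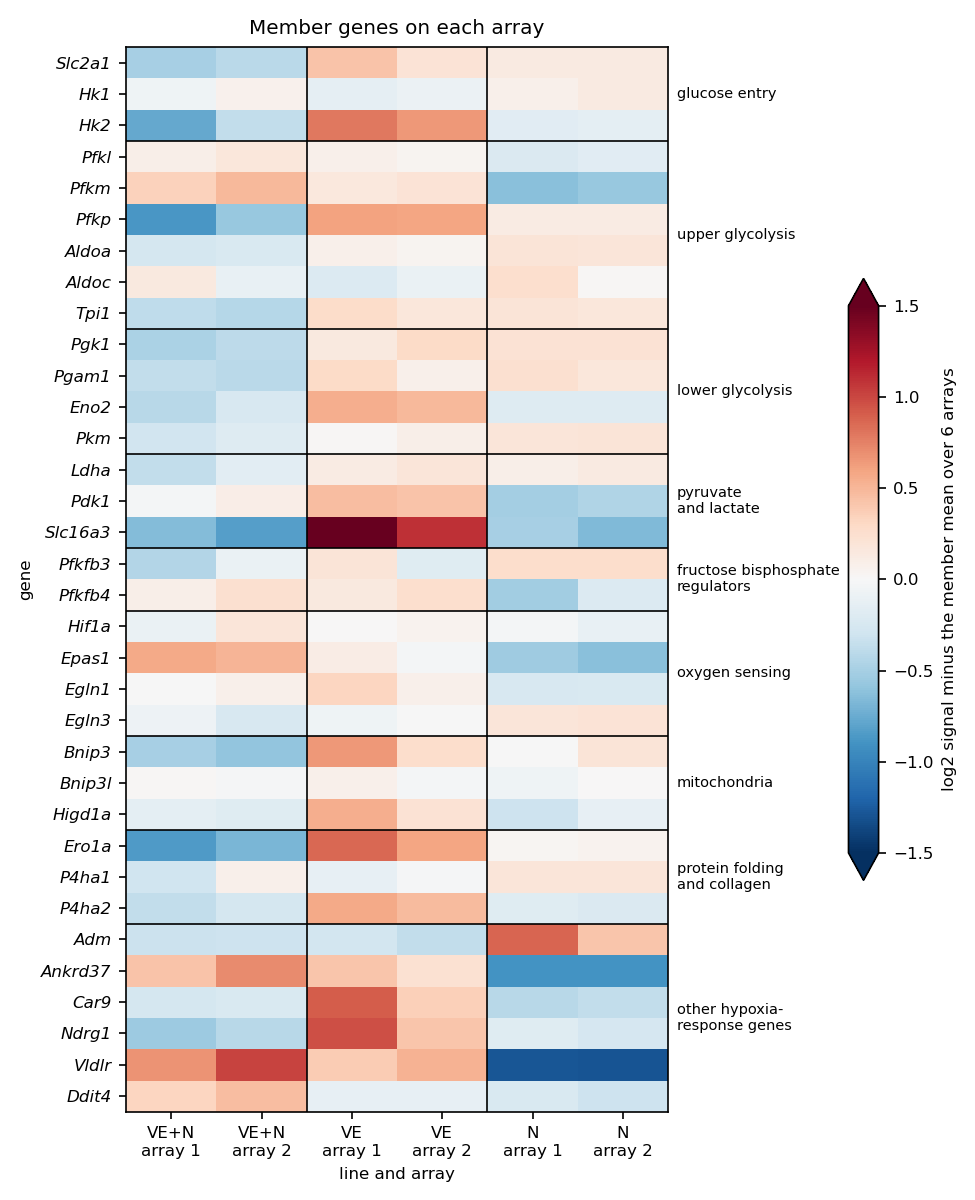
Log2 signal of the 34 measured genes (rows, grouped by role) on each of the 6 arrays (columns: VE+N, VE, N, 2 arrays each), drawn as the signal minus that gene's mean over the 6 arrays; colours saturate at 1.5 log2 units. Slc16a3, Hk2, Ero1a, Car9 and Ndrg1 are highest on the VE arrays, most glycolytic enzymes are lowest on the VE+N arrays, and Vldlr and Ankrd37 are lowest on the N arrays.

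In the VE line compared with the N line, the lactate exporter gene Slc16a3, the hexokinase gene Hk2 and 4 of the 6 other hypoxia-response genes (Ankrd37, Car9, Ndrg1 and Vldlr) were higher and Adm was lower, while Aldoa, Tpi1, Pgk1, Pgam1, Pkm and Ldha of the glycolytic trunk were not called. Of the 34 genes, 16 rose in VE (8.46% of all genes rose), 1 fell (6.99% of all genes fell; 15.4% changed in either direction) and 17 were not called, with a median log2 difference of 0.31 against −0.02 over all genes. Changes over 2-fold were 4 rises and 0 falls, with 2.58% and 1.23% of all genes over 2-fold (3.81% in either direction). Rescaling the arrays to a common median lowered every VE minus N difference by 0.11 and turned the share of rises among all called genes to 34.9%, against 54.8% without it; the list then gave 13 rises and 1 fall and a median of 0.20.

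In the VE+N line compared with the N line, 3 of the 6 upper glycolysis genes (Pfkp, Aldoa, Tpi1) and 3 of the 4 lower ones (Pgk1, Pgam1, Pkm) were lower. Pfkm was higher, as were Epas1, Ankrd37, Vldlr, Ddit4, Pdk1 and Pfkfb4. Of the 34 genes, 7 rose in VE+N (10.2% of all genes rose), 12 fell (8.91% of all genes fell; 19.1% changed in either direction) and 15 were not called, with a median of −0.15 against −0.00 over all genes. The rises included 4 over 2-fold (2.45% of all genes) and the falls 0 (2.16% of all genes; 4.6% in either direction). Several of the falls were not called without N replicate 1 or N replicate 2, which leaves the N line with 1 array. The differences hardly moved in Aldoa (−0.43 and −0.44, against −0.44 with all arrays) and Pkm (−0.43 and −0.43, against −0.43). Bnip3 moved more, from −0.64 to −0.53 without N replicate 2.

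In the VE+N line compared with the VE line, called genes were mostly lower. Of the 34 genes, 2 rose in VE+N (4.29% of all genes rose), 16 fell (5.84% of all genes fell; 10.1% changed in either direction) and 16 were not called, with a median of −0.30 against 0.03 over all genes. Over 2-fold, 6 fell (1.97% of all genes) and 0 rose (0.547% of all genes; 2.52% in either direction). The 2 rises, Epas1 and Ddit4, were both lost without VE replicate 1, without VE replicate 2 or without VE+N replicate 2, where the count was 0. Rescaling the arrays to a common median turned the share of rises among all called genes in this comparison to 60.8%, against 42.3% without it; the list then gave 2 rises and 13 falls, with Higd1a, Ldha and Pdk1 no longer called, and a median of −0.21. The methods' analysis of variance with adjustment left 1 of the 16 falls here, 7 rises in VE against N, and 7 rises and 4 falls in VE+N against N. The 3 comparisons share lines with one another, so their counts are not independent.

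**Figure D2:**
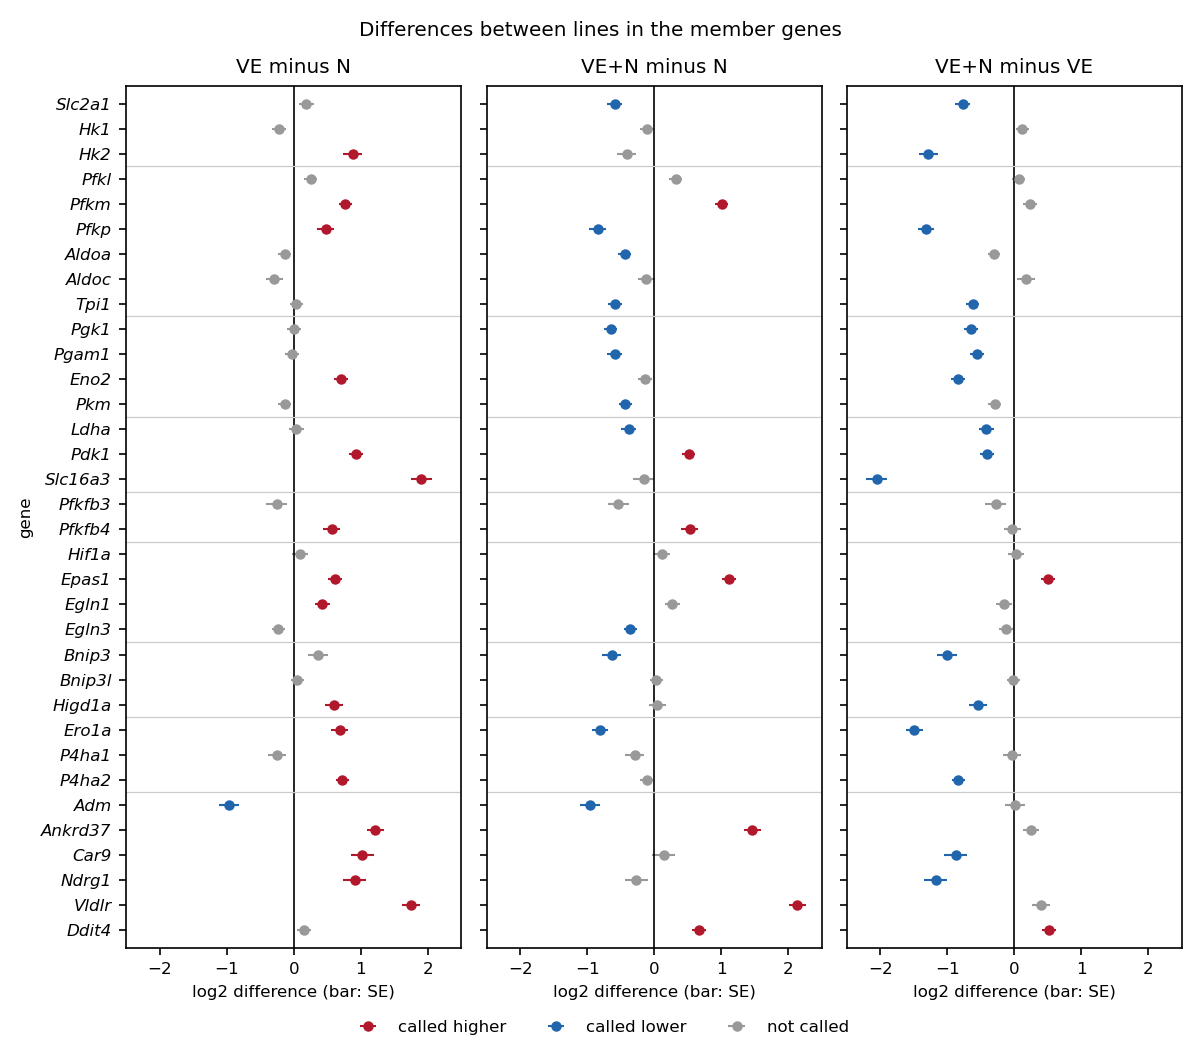
Log2 differences (points) with their SE (bars) for the 34 genes in panels for VE against N, for VE+N against N and for VE+N against VE; red and blue mark genes called higher and lower at adjusted p below 0.05 and grey those not called. In VE minus N 16 points are red and 1 is blue, and in VE+N minus VE 16 are blue and 2 are red.

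Markers of other states moved along with these counts. All 14 measured proliferation markers rose in VE against N (median log2 difference 1.01) and all 14 fell in VE+N against VE (median −1.22). Their mean signal per array ran from 7.52 to 7.78 in VE+N, from 8.81 to 8.82 in VE and from 7.73 to 7.77 in N. Of 12 mural and fibroblast markers, 4 rose and 2 fell in VE against N, 0 rose and 5 fell in VE+N against N, and 0 rose and 6 fell in VE+N against VE; their mean signal ran from 4.36 to 4.38 in VE+N, from 5.79 to 5.93 in VE and from 5.20 to 5.22 in N. Of 17 endothelial markers, 3 rose and 3 fell in VE against N, 6 rose and 1 fell in VE+N against N, and 6 rose and 0 fell in VE+N against VE. In VE+N against N, Pdgfrb, of the mural and fibroblast list, fell by 4.85 ± 0.14 (adjusted p = 4.41e-07). Cd68, of the haematopoietic list, fell by 2.88 ± 0.138 (adjusted p = 5.46e-06). The endothelial markers Cldn5 and Vwf rose by 5.44 ± 0.125 and 4.13 ± 0.116 (adjusted p = 2.09e-07 and 3.99e-07). Those 4 genes and the collagen gene Col1a1 are named here after their values were seen. Cd68 was the only called gene of 7 measured haematopoietic markers in VE+N against N, where 0 rose, 1 fell and 6 were not called. It was also the only 1 of the 7 above the median gene in each line. In N it averaged 11.56, where Ptprc had 2.85, Adgre1 2.78, Itgam 3.42 and Spi1 3.39, so Cd68 alone does not mark macrophages here. Pdgfrb averaged 9.04 in N, where Rgs5 had 2.91, Cspg4 4.80 and Acta2 7.11. Col1a1 rose in VE against N by 3.40 ± 0.138 (adjusted p = 4.37e-06) and VE+N minus VE was −3.51 ± 0.138 (adjusted p = 7.63e-06). The part of proliferation or of any of these markers in the results below was not tested, and in bulk RNA fewer cells of a type and less RNA per cell cannot be told apart.

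Glucose enters through transporters and is trapped by hexokinases. Slc2a1, the main glucose transporter of endothelium, had 8.77 and 8.87 on the VE+N arrays, 9.71 and 9.48 on the VE arrays and 9.41 and 9.41 on the N arrays. Both VE+N arrays lay below all others. Slc2a1 fell in VE+N by 0.77 ± 0.111 against VE (adjusted p = 0.0038) and by 0.58 ± 0.111 against N (adjusted p = 0.00802, and 0.0511 without N replicate 2), and VE minus N was 0.19 ± 0.111 (adjusted p = 0.35).

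Hk2, the inducible hexokinase, had 5.09 and 5.49 on the VE+N arrays, 6.64 and 6.51 on the VE arrays and 5.68 and 5.71 on the N arrays. The 3 lines did not overlap. It rose in VE by 0.88 ± 0.141 against N (adjusted p = 0.00421) and fell in VE+N by 1.29 ± 0.141 against VE (adjusted p = 0.00101), which is 2.44-fold. VE+N minus N was −0.41 ± 0.141 (adjusted p = 0.0888, and 0.0189 without VE+N replicate 2).

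Hk1, the constitutive hexokinase, was called in no comparison, with differences of −0.22 in VE against N, −0.11 in VE+N against N and 0.12 in VE+N against VE. Its chosen probe set rests on 1 accession that 16 other probe sets share between Hk1 and the ribosomal protein gene Rpl17, and those 16 differed between VE and N by −0.20 to −0.12. The other Hk1 probe set, annotated with 8 accessions, gave 0.18, 0.29 and 0.10 in the same comparisons, so the direction of Hk1 depends on the probe set.

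Phosphofructokinase, the committed step of glycolysis, has 3 isoform genes, and they moved differently. Pfkm, the muscle-type isoform, had 8.78 and 8.92 in VE+N, 8.59 and 8.64 in VE and 7.81 and 7.87 in N. It was lowest in N, rising by 1.01 ± 0.101 in VE+N (adjusted p = 0.000297) and by 0.77 ± 0.101 in VE (adjusted p = 0.00154). Pfkp, the platelet-type isoform, had 6.71 and 7.03 in VE+N, 8.20 and 8.18 in VE and 7.72 and 7.71 in N. It was lowest in VE+N, by 1.32 ± 0.123 log2 units against VE (−1.32, adjusted p = 0.000468) and 0.84 against N (−0.84 ± 0.123, adjusted p = 0.00203).

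The rise of Pfkp in VE against N, 0.47 ± 0.123 (adjusted p = 0.0362), was lost without any single one of the VE or N arrays (adjusted p up to 0.161) and with median centring (0.37, adjusted p = 0.0919). Pfkl, the liver-type isoform, was called in no comparison, with 0.32 ± 0.096 for VE+N minus N (adjusted p = 0.0539) and 0.25 ± 0.096 for VE minus N (adjusted p = 0.128). The VE+N line had the highest mean of Pfkm and Pfkl and the lowest of Pfkp. Its differences from VE were not called in Pfkm (0.24 ± 0.101, adjusted p = 0.212) or Pfkl (0.07 ± 0.096, adjusted p = 0.758).

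Fructose 2,6-bisphosphate, the activator of phosphofructokinase, is made by the enzymes of Pfkfb3 and Pfkfb4. Pfkfb3, the isoform known to drive glycolysis in sprouting vessels, had 5.68 and 6.02 in VE+N, 6.32 and 5.95 in VE and 6.38 and 6.39 in N. Its VE+N minus N difference of −0.53 ± 0.157 stood next to the threshold (adjusted p = 0.0512, but 0.049 with median centring and 0.0375 with quantile normalization), and no other difference of it was called. Pfkfb4 rose by 0.56 ± 0.131 in VE (adjusted p = 0.0235) and by 0.53 ± 0.131 in VE+N (adjusted p = 0.0248) against N, and both calls were lost without N replicate 1 (0.40 and 0.37, adjusted p = 0.169 and 0.181) and without either of the VE arrays (adjusted p from 0.051 to 0.146). The VE call was also lost with median centring (0.46, adjusted p = 0.0557) and the VE+N call without VE+N replicate 2 (0.46, adjusted p = 0.119).

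The trunk enzymes that follow were lowest in VE+N. Pgk1, which makes the first ATP of the pathway, had 11.63 and 11.72 in VE+N, 12.25 and 12.40 in VE and 12.32 and 12.33 in N. It fell in VE+N by 0.65 ± 0.103 against VE (adjusted p = 0.006, and 0.0617 without VE replicate 2) and by 0.65 ± 0.103 against N (adjusted p = 0.00325), while VE minus N was −0.00 with a 95% interval from −0.24 to 0.24. Tpi1, the triose phosphate isomerase, fell in VE+N by 0.62 ± 0.0981 against VE and by 0.58 ± 0.0981 against N (adjusted p = 0.00577 and 0.00433), the first of these reaching only adjusted p = 0.0582 without VE replicate 1.

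Pgam1, the phosphoglycerate mutase, fell in VE+N by 0.56 ± 0.109 against VE and by 0.59 ± 0.109 against N (adjusted p = 0.0153 and 0.00697), the first of which was lost without VE replicate 1 (adjusted p = 0.112) or VE+N replicate 2 (adjusted p = 0.0723). Aldoa, the main aldolase, and Pkm, which makes pyruvate, fell in VE+N against N by 0.44 ± 0.0942 and 0.43 ± 0.0978 (adjusted p = 0.0137 and 0.018) and were not called against VE (−0.30 and −0.29, adjusted p = 0.0909 and 0.115). Without N replicate 1 none of these 3 passed against N (adjusted p = 0.0578 for Pgam1, 0.0973 for Aldoa and 0.108 for Pkm), nor did Aldoa and Pkm without N replicate 2 (0.0879 and 0.108) or Pkm without VE+N replicate 1 (0.0537). Pgk1 and Pgam1 each had 3 probe sets, which gave −0.65 to −0.63 and −0.56 to −0.53 for VE+N minus VE, and signal from near-identical copies of these genes cannot be told apart. The second probe set of Pkm gave −0.31 for VE+N minus N (adjusted p = 0.078).

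The isoforms known from nerve cells stood apart from the trunk. Eno2 had 4.77 and 4.94 in VE+N, 5.72 and 5.67 in VE and 4.99 and 4.99 in N. It rose in VE by 0.71 ± 0.104 against N (adjusted p = 0.00277) and fell in VE+N by 0.84 ± 0.104 against VE (adjusted p = 0.0018), so the VE line alone was high. Aldoc was called in no comparison and lay below the median gene in all 3 lines.

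**Figure D3:**
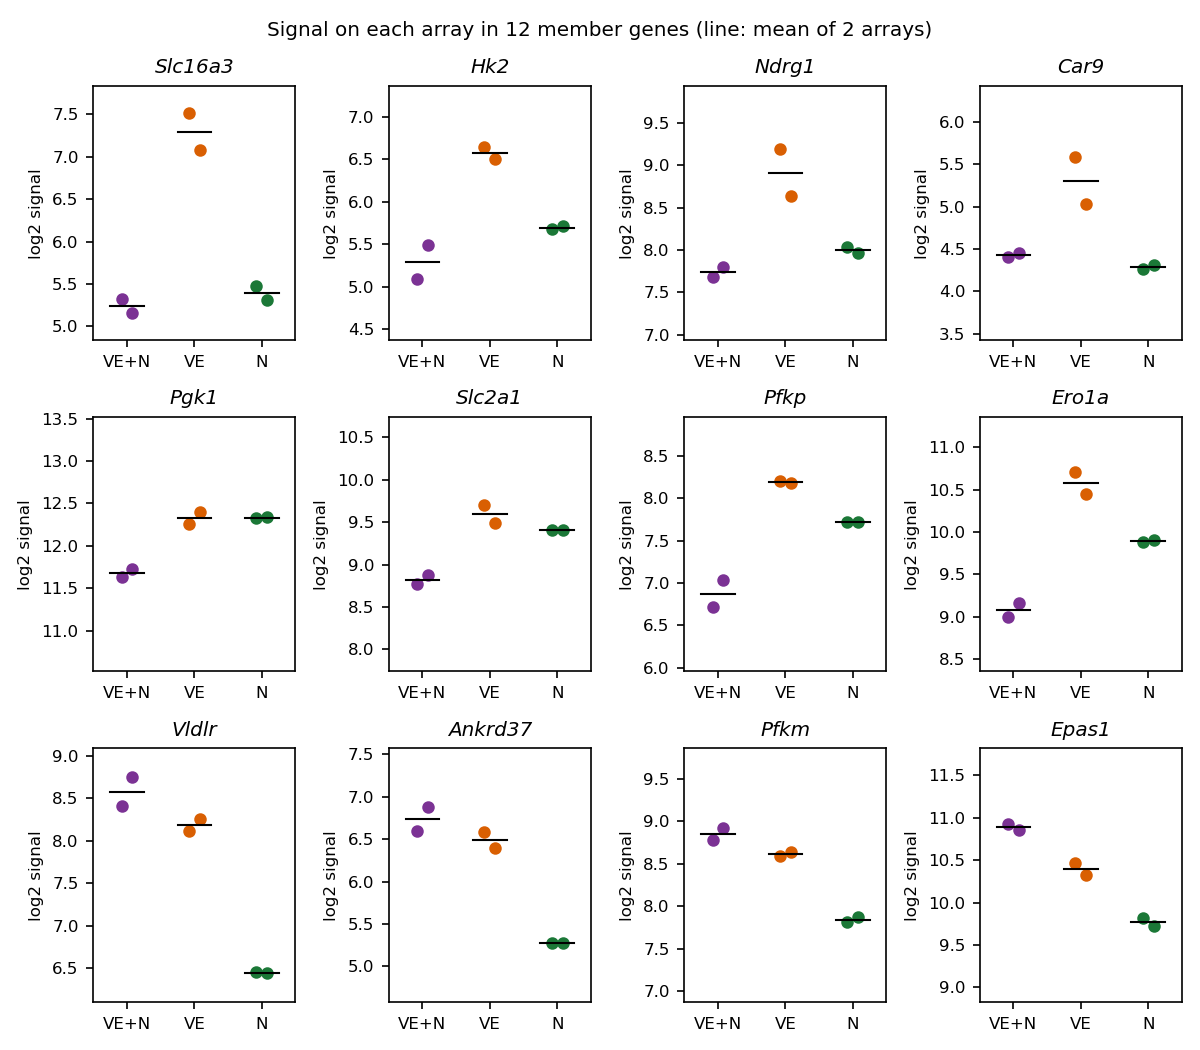
Log2 signal on each array (points) with the mean of the 2 arrays (black lines) in VE+N, VE and N for 12 genes picked after their values were seen, each panel spanning 3 log2 units. The top row holds genes high in VE, the middle row genes low in VE+N, and the bottom row genes low in N.

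Pyruvate is either reduced to lactate and exported or burned in mitochondria. Slc16a3, the lactate exporter MCT4, showed the largest change of the 34 genes in VE+N against VE and in VE against N. It had 5.32 and 5.15 in VE+N, 7.52 and 7.08 in VE and 5.48 and 5.32 in N. Only the VE line was high: it rose there by 1.90 ± 0.156 against N (3.73-fold, adjusted p = 0.000141), and VE+N lay 2.06 ± 0.156 below VE (−2.06, 4.16-fold, adjusted p = 0.00017). VE+N and N overlapped, at a difference of −0.16 with a 95% interval from −0.52 to 0.20. Slc16a3 lay below the median gene in VE+N and N, as did Hk2, Aldoc, Eno2, Pfkfb4, Adm, Ankrd37 and Car9 in at least 1 line, so the sizes of their changes are approximate.

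Pdk1, the kinase that shuts pyruvate out of mitochondrial oxidation, had 8.38 and 8.51 in VE+N, 8.88 and 8.83 in VE and 7.89 and 7.96 in N. The lines did not overlap and N was lowest. It rose against N by 0.93 ± 0.101 in VE (adjusted p = 0.000579) and by 0.52 ± 0.101 in VE+N (adjusted p = 0.00886, and 0.0764 without N replicate 1). Its fall in VE+N against VE, 0.41 ± 0.101 (adjusted p = 0.0399), was lost without any single array (adjusted p from 0.0594 to 0.187).

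Ldha, which reduces pyruvate to lactate, had 10.68 and 10.88 in VE+N, 11.17 and 11.23 in VE and 11.14 and 11.18 in N. It was lower on both VE+N arrays by −0.42 ± 0.108 against VE (adjusted p = 0.0485) and −0.38 ± 0.108 against N (adjusted p = 0.0447). Both calls were near the threshold and were lost without VE+N replicate 1 (−0.32 and −0.28, adjusted p = 0.115 and 0.126), and each was also lost without VE replicate 1, VE replicate 2, N replicate 1 or N replicate 2.

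The HIF alpha subunits differed from each other. Hif1a had 10.82 and 11.10 in VE+N, 10.92 and 10.96 in VE and 10.89 and 10.81 in N. Its largest difference was 0.11 ± 0.12 for VE+N minus N, with a 95% interval from −0.17 to 0.39 (adjusted p = 0.615). Epas1, which encodes HIF-2 alpha, the subunit known for its high level in endothelium, had 10.92 and 10.86 in VE+N, 10.46 and 10.32 in VE and 9.82 and 9.72 in N. The lines did not overlap, and Epas1 rose in VE+N by 1.12 ± 0.104 (2.18-fold, adjusted p = 0.000189) and in VE by 0.62 ± 0.104 (adjusted p = 0.00507) against N. VE+N minus VE was 0.50 ± 0.104 (adjusted p = 0.0201, and up to 0.145 without a VE or VE+N array).

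The hydroxylases that sense oxygen changed little. Egln1 had 8.71 and 8.79 in VE+N, 9.03 and 8.79 in VE and 8.47 and 8.49 in N. It rose in VE against N by 0.43 ± 0.114 (adjusted p = 0.041), which was lost without VE replicate 1 (0.30, adjusted p = 0.227), without N replicate 1 or N replicate 2 (adjusted p = 0.183 and 0.164) and with median centring (0.32, adjusted p = 0.0977). Egln3, itself a HIF target, had 11.20 and 11.04 in VE+N, 11.21 and 11.27 in VE and 11.46 and 11.49 in N. It was lower in VE+N than in N by −0.35 ± 0.103 (adjusted p = 0.0481, and 0.149 without VE+N replicate 2). That call was also lost without any single VE or N array (adjusted p up to 0.218).

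Genes that act at mitochondria split as well. Bnip3, a receptor for removal of mitochondria, had 8.80 and 8.71 in VE+N, 9.95 and 9.56 in VE and 9.29 and 9.49 in N. It fell in VE+N by 1.00 ± 0.147 against VE (adjusted p = 0.00416) and by 0.64 ± 0.147 against N (adjusted p = 0.0192, but 0.117 without N replicate 2, 0.0573 without VE+N replicate 1 and 0.0993 without VE+N replicate 2). Its second probe set gave −0.92 and −0.61. Its relative Bnip3l was called in no comparison, with differences of 0.05, 0.03 and −0.02 in VE against N, in VE+N against N and in VE+N against VE (adjusted p from 0.813 to 0.942), and 0.10, 0.05 and −0.04 by its second probe set.

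Higd1a, a hypoxia-induced protein of the respiratory chain, rose in VE against N by 0.60 ± 0.132 (adjusted p = 0.019, but 0.123 without VE replicate 1 and 0.127 without N replicate 1). Its probe sets differed in VE+N: the chosen probe set gave −0.55 against VE (adjusted p = 0.0365) and 0.05 against N, and the other gave −0.05 (adjusted p = 0.853) and 0.53 (adjusted p = 0.0132). The level of Higd1a in VE+N is therefore uncertain.

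Of the 3 genes of oxidative protein folding and collagen maturation, Ero1a and P4ha2 rose in VE against N and P4ha1 was not called. Ero1a, the oxidase that renews disulfide bonding in the endoplasmic reticulum, had 9.00 and 9.17 in VE+N, 10.71 and 10.44 in VE and 9.88 and 9.91 in N. The 3 lines did not overlap. It rose in VE by 0.68 ± 0.123 against N (adjusted p = 0.00722, and 0.06 without VE replicate 1) and fell in VE+N by 1.49 ± 0.123 against VE (2.81-fold, adjusted p = 0.000261) and by 0.81 ± 0.123 against N (adjusted p = 0.00256).

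The collagen prolyl hydroxylase subunits differed. P4ha2 had 6.72 and 6.82 in VE+N, 7.66 and 7.56 in VE and 6.90 and 6.87 in N, rising in VE by 0.72 ± 0.1 against N (adjusted p = 0.00203) and falling in VE+N by 0.84 ± 0.1 against VE (adjusted p = 0.00155). P4ha1 was called in no comparison (−0.25 in VE against N, −0.29 in VE+N against N and −0.04 in VE+N against VE). Plod1, a lysyl hydroxylase that also acts on collagen, was not on the list and fell in VE against N (−0.73, adjusted p = 0.00314); it was named after its values were seen.

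Among the other hypoxia-response genes, Ndrg1 and Car9 were high in VE alone. Ndrg1, a stress-induced gene, had 7.68 and 7.80 in VE+N, 9.19 and 8.63 in VE and 8.04 and 7.97 in N. It rose in VE by 0.91 ± 0.173 against N (adjusted p = 0.00944) and fell in VE+N by 1.17 ± 0.173 against VE (adjusted p = 0.00419). Car9, the surface carbonic anhydrase that handles acid, had 4.41 and 4.45 in VE+N, 5.58 and 5.03 in VE and 4.26 and 4.31 in N. It rose in VE by 1.02 ± 0.169 against N (adjusted p = 0.00487) and fell in VE+N by 0.88 ± 0.169 against VE (adjusted p = 0.0146, and 0.0696 or 0.0835 without either VE+N array). Car9 lay below the median gene in all 3 lines.

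Vldlr and Ankrd37 were low in N alone. Vldlr, a lipoprotein receptor, had 8.41 and 8.75 in VE+N, 8.12 and 8.25 in VE and 6.45 and 6.44 in N. It showed the largest rise in VE+N against N of the 34 genes, 2.14 ± 0.132 (4.4-fold, adjusted p = 2e-05), and rose in VE by 1.75 ± 0.132 (adjusted p = 8.96e-05). Ankrd37, an ankyrin repeat gene induced by HIF, had 6.60 and 6.88 in VE+N, 6.59 and 6.40 in VE and 5.27 and 5.27 in N, rising by 1.47 ± 0.126 in VE+N (adjusted p = 0.000126) and by 1.22 ± 0.126 in VE (adjusted p = 0.000445).

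Adm and Ddit4 followed other orders. Adm, which encodes the vasoactive peptide adrenomedullin, had 4.72 and 4.74 in VE+N, 4.77 and 4.67 in VE and 5.91 and 5.46 in N. It was the only gene of the list called lower in both VE and VE+N than in N (4.71% of all genes were), by 0.96 ± 0.149 in VE (adjusted p = 0.00354) and by 0.96 ± 0.149 in VE+N (adjusted p = 0.00292). Ddit4, an inhibitor of mTORC1 signalling, had 10.19 and 10.33 in VE+N, 9.74 and 9.75 in VE and 9.63 and 9.55 in N. It rose in VE+N by 0.67 ± 0.102 against N (adjusted p = 0.00268) and by 0.51 ± 0.102 against VE (adjusted p = 0.0169, but 0.0733 without VE+N replicate 2 and up to 0.104 without a VE array).

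Set side by side, the calls fell into 3 main patterns. Higher in VE than in both other lines were 10 of the 34 genes (3.12% of all genes), namely Hk2, Pfkp, Eno2, Pdk1, Slc16a3, Higd1a, Ero1a, P4ha2, Car9 and Ndrg1. Lower in VE+N than in both other lines were 8 (2.65% of all genes), namely Slc2a1, Pfkp, Tpi1, Pgk1, Pgam1, Ldha, Bnip3 and Ero1a. Higher in VE and in VE+N than in N were 6 (4.77% of all genes), namely Pfkm, Pdk1, Pfkfb4, Epas1, Ankrd37 and Vldlr. No gene of the list was called lower in VE than in both other lines (0.762% of all genes), and 2 (Epas1 and Ddit4) were called higher in VE+N than in both (3% of all genes). These sets were formed after the values were seen. The first set counted 6 without VE replicate 1 and 7 with median centring. The second counted 5 without N replicate 2 (Slc2a1, Ldha and Bnip3 lost) and 5 without VE replicate 1 (Tpi1, Pgam1 and Ldha lost), and Pfkp and Ero1a were the members that held without any single array. The set low in N counted 4 without N replicate 1 (Pdk1 and Pfkfb4 lost).

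The arrays of the VE line differed from each other in several of these genes. In VE the SD of the differences was 0.194 over the 34 genes and 0.196 over all genes. In the other lines the 34 genes spread less than all genes, with 0.160 against 0.244 in VE+N and 0.125 against 0.185 in N. On VE array 1, 22 of the 34 genes were higher than on VE array 2 (50.6% of all genes were), with a median difference of 0.08 against 0.00 over all genes. The largest differences were in Ndrg1 (0.56), Car9 (0.56), Slc16a3 (0.44) and Bnip3 (0.40). Of the 16 genes called higher in VE than in N, 13 were higher on VE array 1, and Vldlr, Pfkm and Pfkfb4 were lower on it. On the VE+N arrays 9 of the 34 were higher on array 1, as were 50.4% of all genes (median −0.10, all genes 0.00). On the N arrays 14 of the 34 were, as were 51.3% of all genes (median −0.00, all genes 0.00). Without VE replicate 1 the list had 11 rises in VE against N and a median of 0.20, and without VE replicate 2 it had 14 and 0.39.

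**Figure D4:**
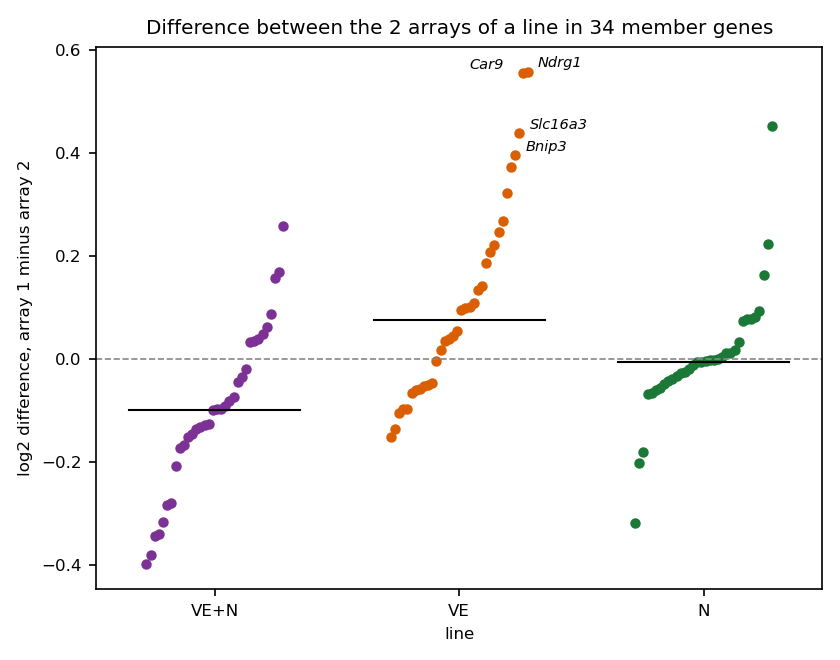
Log2 difference between array 1 and array 2 of each line (points: the 34 genes in rank order, black lines: medians) in VE+N, VE and N, with the dashed line at 0. Ndrg1, Car9, Slc16a3 and Bnip3 differ most between the VE arrays, by 0.40 to 0.56.

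Genes of the same pathways outside the list were examined for context. Over all genes, 8.46% rose and 6.99% fell in VE against N, 10.2% and 8.91% in VE+N against N, and 4.29% and 5.84% in VE+N against VE. In VE against N the counts of the transporters, of the pentose phosphate, glycogen and glycerol branches and of the HIF regulators below were near these shares. Genes named below are called ones picked from each list and do not stand for it. Of 18 other glycolysis enzymes, 4 rose and 2 fell in VE against N, 4 rose and 3 fell in VE+N against N, and 0 rose and 3 fell in VE+N against VE, with medians of 0.08, 0.03 and 0.03. Eno3, the muscle enolase, was highest in VE, with means of 6.83 ± 0.208 in VE+N, 7.78 ± 0.442 in VE and 6.05 ± 0.00728 in N (SD, n = 2 each). Ldhb, the other lactate dehydrogenase subunit, rose in VE against N by 1.10 ± 0.2 (adjusted p = 0.00782) and fell in VE+N against VE by 1.21 ± 0.2 (adjusted p = 0.00728). Fbp1, which runs the phosphofructokinase step backwards, fell against N by 1.32 ± 0.121 in VE (adjusted p = 0.000238) and by 1.07 ± 0.121 in VE+N (adjusted p = 0.000538). Pgm1, which links glucose to glycogen, fell in VE+N by 1.15 ± 0.102 against VE (adjusted p = 0.000367) and by 1.05 ± 0.102 against N (adjusted p = 0.000244).

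Among 14 sugar, lactate and pyruvate transporters, 1 rose and 2 fell in VE against N, 2 rose and 1 fell in VE+N against N, and 1 rose and 1 fell in VE+N against VE. Slc16a1, the lactate transporter MCT1, was highest in N, with means of 7.55 ± 0.0745 in VE+N, 8.14 ± 0.142 in VE and 8.64 ± 0.0529 in N (SD, n = 2 each), falling by 0.50 ± 0.111 in VE (adjusted p = 0.0193) and by 1.09 ± 0.111 in VE+N (adjusted p = 0.000315) against N. Of 11 genes of the pyruvate dehydrogenase complex and its regulators, 3 rose and 1 fell in VE against N, and 4 rose and 0 fell in VE+N against N. Pdk3, a further kinase of the complex, rose by 1.11 ± 0.105 in VE (adjusted p = 0.000273) and by 0.95 ± 0.105 in VE+N (adjusted p = 0.000482). Pdp1, the phosphatase that opposes these kinases, rose too, by 0.84 ± 0.107 in VE (adjusted p = 0.00137) and by 1.20 ± 0.107 in VE+N (adjusted p = 0.000158). In VE+N against VE, 0 of the 11 were called.

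Of 20 genes of the pentose phosphate, glycogen and glycerol branches, 2 rose and 2 fell in VE against N, 0 rose and 5 fell in VE+N against N, and 0 rose and 4 fell in VE+N against VE. Gbe1, the glycogen branching enzyme, fell by 1.04 ± 0.146 in VE+N against N (adjusted p = 0.00167), and Psat1, of serine synthesis, rose by 0.86 ± 0.13 in VE against N (adjusted p = 0.00305). Of 17 further HIF subunits and oxygen-sensing regulators, 1 rose and 1 fell in VE against N, 3 rose and 1 fell in VE+N against N, and 1 rose and 1 fell in VE+N against VE. Hif1an, which encodes the hydroxylase that blocks HIF from its coactivators, fell by 0.65 ± 0.107 in VE against N (adjusted p = 0.00475). Vhl, whose product marks hydroxylated HIF for destruction, rose by 0.48 ± 0.114 in VE+N against N (adjusted p = 0.0218).

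A wider set of 60 other hypoxia-inducible genes did not share a direction in VE against N: 14 rose and 12 fell, with a median of 0.04. In VE+N, 7 rose and 17 fell against N (median −0.09), and 2 rose and 14 fell against VE (median −0.26). Vegfa, the main angiogenic factor, was highest in VE, with means of 7.25 ± 0.0345 in VE+N, 8.17 ± 0.145 in VE and 6.94 ± 0.0421 in N (SD, n = 2 each). It rose in VE by 1.24 ± 0.108 against N (adjusted p = 0.000189) and fell in VE+N by 0.93 ± 0.108 against VE (adjusted p = 0.00139). Bhlhe41, a transcriptional repressor, rose by 1.33 ± 0.195 in VE against N (adjusted p = 0.00273), and Ppp1r3c, which targets a phosphatase to glycogen, rose by 2.14 ± 0.155 in VE+N against N (adjusted p = 5.04e-05).

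Several known targets of this set went the other way in VE. Pgf, placental growth factor, fell by 2.84 ± 0.179 in VE against N (adjusted p = 3.54e-05), and the chemokine receptor gene Cxcr4 by 2.06 ± 0.131 (adjusted p = 3.55e-05). Igfbp3 fell by 2.08 ± 0.28 in VE (adjusted p = 0.00181) and by 4.22 ± 0.28 in VE+N (adjusted p = 3.05e-05) against N. Zfp395 and Bhlhe40, in contrast, went the same way as most called genes of the list in VE+N against VE. There Zfp395, whose human counterpart is known to be induced by hypoxia, fell by 2.43 ± 0.138 (adjusted p = 4.6e-05). Bhlhe40, a repressor related to Bhlhe41, fell by 1.44 ± 0.119 (adjusted p = 0.000271). Many genes of this set answer to other signals as well as to HIF.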

How the data were processed

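RNA of 3 endothelial lines was hybridised to Affymetrix Mouse Gene 1.0 ST arrays, 2 per line, from 150 ng of RNA, per the labels' protocols. The authors deposited 1 log2 value per probe set, made by RMA in Partek 6.3 per the submitters' processing notes; the log scale follows from the range of the values. RMA corrects background, normalizes by quantiles and summarizes probe sets, so small differences between arrays depend on that scaling. Of 35556 probe sets, 21789 carried 1 gene symbol, 1621 several and 12146 none. Symbols were updated through Entrez identifiers to RefSeq names, giving 19936 genes. No signal filter was used.

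Line means were fitted over all 6 arrays with limma 3.58.1 in R 4.3.3 (3 residual and 4.89 prior degrees of freedom), with Benjamini-Hochberg adjustment over all genes in each comparison; intervals are at 95%. The fit was tested on simulated data. Members and gene lists were chosen with earlier results of these data known. Per-array values are given for the 11 members called over 2-fold, for 10 members fixed by name (Hk2 and Epas1 are in both) and for Eno2, P4ha2, Adm and Ddit4, called members that the rule admits where room allows; further members, and up to 3 called genes per direction of each other list, are named where called. Col1a1, Plod1, Pdgfrb, Cd68, Cldn5 and Vwf are named outside this rule. Sequences are RefSeq windows of GRCm38.p6; no build is named for the array values. Alternatives are given in the closing section.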

Additional observations from a re-analysis of the deposited data

How the results depend on the processing

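Every called direction in the 34 genes was the same under the alternatives run, and counts moved as follows. Shares of all genes at these settings are not given in this section. A change in the list therefore cannot be told here from a change over all genes. The methods' analysis of variance, unmoderated with 3 residual degrees of freedom, gave after adjustment 7 rises and 0 falls in VE against N, 7 rises and 4 falls in VE+N against N, 0 rises and 1 fall in VE+N against VE, and 11 genes by its F-test; unadjusted it gave 17 rises and 4 falls, 8 and 12, 3 and 18, and 26 genes. A trended robust prior gave 3 falls in VE against N. Removal of the dimmest 50% of genes gave 0, because Adm, the 1 fall, was among the genes removed and was not tested. Quantile normalization again left 1 rise in VE+N against VE.

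Leaving out single arrays gave 11 to 16 rises and 1 fall in VE against N, 5 to 7 rises and 6 to 13 falls in VE+N against N, 0 to 2 rises and 11 to 14 falls in VE+N against VE, and 20 to 22 genes by the F-test. Median differences ran from 0.20 to 0.39, from −0.23 to −0.14 and from −0.39 to −0.26. Held without any 1 array were 11 of 16 rises in VE against N, 5 of 12 falls in VE+N against N and 9 of 16 falls in VE+N against VE. A line left with 1 array is assumed to vary like the others.

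With the replicate number as a block, the counts were 15 rises and 1 fall, 7 and 11, and 2 and 16, and 25 genes by the F-test. The numbers share only a label: differences between replicates 1 and 2 correlated between lines at 0.0689 (VE+N and VE), 0.123 (VE+N and N) and −0.00504 (VE and N), across genes. The probe set with the lowest mean, chosen as an alternative after seeing the data, gave 16 rises and 1 fall, 8 and 11, and 2 and 14. Signal over background was not examined, and 8 of the 34 genes lay below the median gene in at least 1 line.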
